A study of Homo sapiens with 12 samples.

Results

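The genes described here are the RAB GTPases of a human colon cancer cell line and of its BRAF inhibitor resistant derivative. Of 63 genes whose symbol is RAB followed by a number and at most 1 letter, and that are listed in both deposited tables, 46 had at least 1 TPM (an abundance per transcript length, scaled to the same total in each library) in at least 3 of the 12 libraries. These 46 are the members, among 25540 genes in both tables. The members were chosen by their TPM level, so their presence above 1 TPM is a description and not a result. Of the members, 42 had at least 1 TPM in all 12 libraries. RAB26 had it in 9 libraries, RAB39A in 6 and RAB6C in 5, and RAB3B had it in 3, all of them LS411N with doxycycline, so RAB3B became a member only through the group where it is high. Nearest to the threshold, the third highest value was 1.14 TPM for RAB3B and 1.22 TPM for RAB6C among the members, and 0.569 TPM for RAB6D and 0.545 TPM for RAB36 among the 17 genes left out. RAB4B was listed at 0 in every library.

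RAB proteins are small GTPases that sit on the membranes of vesicles and organelles and mark where a vesicle is to go. Guanine nucleotide exchange factors load them with GTP, in which state they recruit effectors such as tethers and motor proteins. GTPase activating proteins switch them off, and GDI proteins carry them through the cytosol with their prenyl anchors covered. In intestinal epithelium they direct apical delivery, recycling of receptors, lysosomal degradation and granule or mucus secretion.

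RNA was sequenced from LS411N, a BRAF mutant human colon cancer line, and from LS411N-BR, a derivative labelled as resistant to BRAF inhibitors. All 4 groups carried a tetracycline-inducible short hairpin RNA (shRNA) against MUC1, a transmembrane mucin, and were puromycin resistant. The groups, with 3 libraries each, were LS411N-BR with 500 ng/ml doxycycline (DOX), LS411N-BR without it, LS411N with 500 ng/ml doxycycline and LS411N without it. LS411N-BR was grown in 4 µM of a BRAF inhibitor, so resistance and the presence of the drug cannot be told apart, and 0.1% DMSO was the vehicle control. The labels do not say whether cultures with doxycycline also received DMSO, so it may differ between the groups of every doxycycline comparison and cannot be told apart from doxycycline. The sources used here do not give the hairpin sequence, the time in doxycycline or the name of the inhibitor. No group has doxycycline without the hairpin, so effects of the drug itself and of the hairpin cannot be told apart. The cultures were triplicates of unstated independence, so p-values measure the spread between these samples, which may be technical.

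MUC1 checked the labels: it averaged 0.449 ± 0.128 TPM in LS411N-BR with doxycycline and 4.06 ± 0.337 TPM without it, and 0.944 ± 0.111 TPM in LS411N with doxycycline and 5.56 ± 1.47 TPM without it (SD, n = 3 each). The deposited TPM sum to 1000000 in each library, which leaves their sequencing depth unknown. TPM were rescaled by the median-of-ratios method over 14233 genes with a value above 0 in all 12 libraries, with factors of 0.850 to 1.17, and all TPM below are rescaled ones. The third LS411N library without doxycycline (replicate 3) was unlike its group, with 15092 genes above 0 against 16836 to 17962 in the other libraries, and its log2 differences to its group mates had SDs of 0.217 and 0.220, where any other pair of replicates had between 0.0892 and 0.12. The 10 markers of colon epithelium summed to between 2603 and 4010 TPM in every library, although CDX1 was at or near 0. The 6 fibroblast markers summed to 2.62 to 3.39 TPM in LS411N-BR with doxycycline against 1.58 to 1.95 TPM without it, and to 0.633 to 0.815 TPM in LS411N with it against 0.333 to 0.560 TPM without it. Most of that sum in LS411N-BR was LUM, the gene of the matrix proteoglycan lumican, which rose there (0.54 ± 0.09 SE on the log2 scale, limma with Benjamini-Hochberg adjustment, adjusted p = 0.00052), while COL1A2, COL3A1 and DCN were at or near 0 in every library. The part of LUM in the RAB values was not tested. The 4 endothelial markers summed to at most 0.0369 TPM.

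Promoters of 4 members that hold a match are shown first, to set the sequence beside the values that follow. RAB27B, RAB5A and RAB29 rose with doxycycline in both lines, and RAB13 fell in LS411N-BR. RefSeq promoter windows of 300 bases on GRCh38.p14, from 250 bases before to 50 after a transcription start, were found for 38 of the 46 members, in 52 windows. Windows were searched on both strands for TGANTCA and for CACGTGAC, an E-box of the kind bound by TFEB and its relatives. TGANTCA covers TGAGTCA and TGACTCA, the sites bound by AP-1 dimers, but is wider than them. Both motifs were chosen with results known, and no match of one overlapped a match of the other. RAB27B, a secretory RAB, holds TGAGTCA at 137 bases before the start, on the plus strand of chromosome 18 (chr18:54828227-54828526), in the window of 1 of its 2 starts. RAB13 of tight junctions holds TGAGTCA and TGACTCA at 102 and 89 bases before the start, on the minus strand of chromosome 1 (chr1:153985344-153985643), also in the window of 1 of its 2 starts. RAB5A of the early endosome holds 2 overlapping matches to CACGTGAC, 123 and 121 bases before its start, on the plus strand of chromosome 3 (chr3:19946847-19947146), and RAB29 of the lysosome and Golgi holds 1 match 19 bases after its start, on the minus strand of chromosome 1 (chr1:205775433-205775732). Each is printed 5′ to 3′ on the strand of its gene, with matches to the motif in capitals.
RAB27B: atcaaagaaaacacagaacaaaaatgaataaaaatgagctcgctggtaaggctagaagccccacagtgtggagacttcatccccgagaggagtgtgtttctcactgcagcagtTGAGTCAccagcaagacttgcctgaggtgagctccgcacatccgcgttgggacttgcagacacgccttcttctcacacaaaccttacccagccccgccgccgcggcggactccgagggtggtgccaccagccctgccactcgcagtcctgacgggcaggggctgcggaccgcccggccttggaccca
RAB13: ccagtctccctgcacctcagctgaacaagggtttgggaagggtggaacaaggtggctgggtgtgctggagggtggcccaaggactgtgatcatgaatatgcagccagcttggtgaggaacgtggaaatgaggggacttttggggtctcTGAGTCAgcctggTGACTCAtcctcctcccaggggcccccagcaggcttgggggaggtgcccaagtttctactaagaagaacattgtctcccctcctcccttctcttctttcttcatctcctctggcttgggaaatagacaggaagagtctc
RAB5A: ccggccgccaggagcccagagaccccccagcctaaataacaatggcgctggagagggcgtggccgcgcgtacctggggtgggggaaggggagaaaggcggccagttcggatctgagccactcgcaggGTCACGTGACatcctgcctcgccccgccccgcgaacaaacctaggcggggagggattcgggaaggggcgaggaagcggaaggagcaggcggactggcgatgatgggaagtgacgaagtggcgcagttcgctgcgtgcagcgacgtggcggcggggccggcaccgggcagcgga
RAB29: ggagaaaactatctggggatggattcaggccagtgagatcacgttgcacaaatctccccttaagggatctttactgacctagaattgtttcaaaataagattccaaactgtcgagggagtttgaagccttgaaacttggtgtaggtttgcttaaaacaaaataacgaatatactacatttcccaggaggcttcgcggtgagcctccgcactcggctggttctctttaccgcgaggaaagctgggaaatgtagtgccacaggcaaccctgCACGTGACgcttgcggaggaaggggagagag
TGANTCA was in 6 of the 52 windows, 11.5%, against 7.71% of all 35116 windows. The genes are RAB13, RAB27A, RAB27B, RAB3B and RAB5B. The matches of RAB27A are TGATTCA, and those of the other genes are TGAGTCA or TGACTCA. CACGTGAC was in 4 of the 52 windows, 7.69%, against 2.40% of all windows, and the genes are RAB5A, RAB21, RAB24 and RAB29. A match says only that these letters are in the window. Genes with TGANTCA did not share a direction in LS411N-BR: RAB27B and RAB5B rose, RAB13 fell and RAB27A did not pass the test. The call of RAB13 was lost in 4 of 15 settings. In LS411N-BR, 33.4% of all genes and 54.5% of the RAB genes tested were called higher. The 4 genes with CACGTGAC rose there, with log2 fold changes of 0.15 to 0.30. Of these, RAB21 and RAB24 did not pass in LS411N. As the motif was chosen with results known, this is a description.

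RAB mRNA was spread over a wide range of levels. On average over the 12 libraries, 10 members had 50 TPM or more, 15 had between 10 and 50 TPM, and 21 had less than 10 TPM, of which 5 had less than 2 TPM. The 10 highest members held 61.4% of the summed RAB TPM. RAB7A of late endosomes and lysosomes was the highest, followed by RAB6A of the Golgi and by RAB10 and RAB25 of recycling and polarised delivery. Summed over the members, LS411N-BR had 1315 to 1335 TPM with doxycycline against 1206 to 1243 TPM without it, and LS411N had 1170 to 1187 TPM with it against 1050 to 1091 TPM without it. The groups of each line did not overlap in this sum, and the sum was higher with doxycycline in both lines. As a share of TPM as deposited, it was 0.142 to 0.157% in LS411N-BR with doxycycline against 0.115 to 0.124% without it, and the groups of LS411N overlapped, at 0.111 to 0.118% with it against 0.0927 to 0.115% without it.

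**Figure D1:**
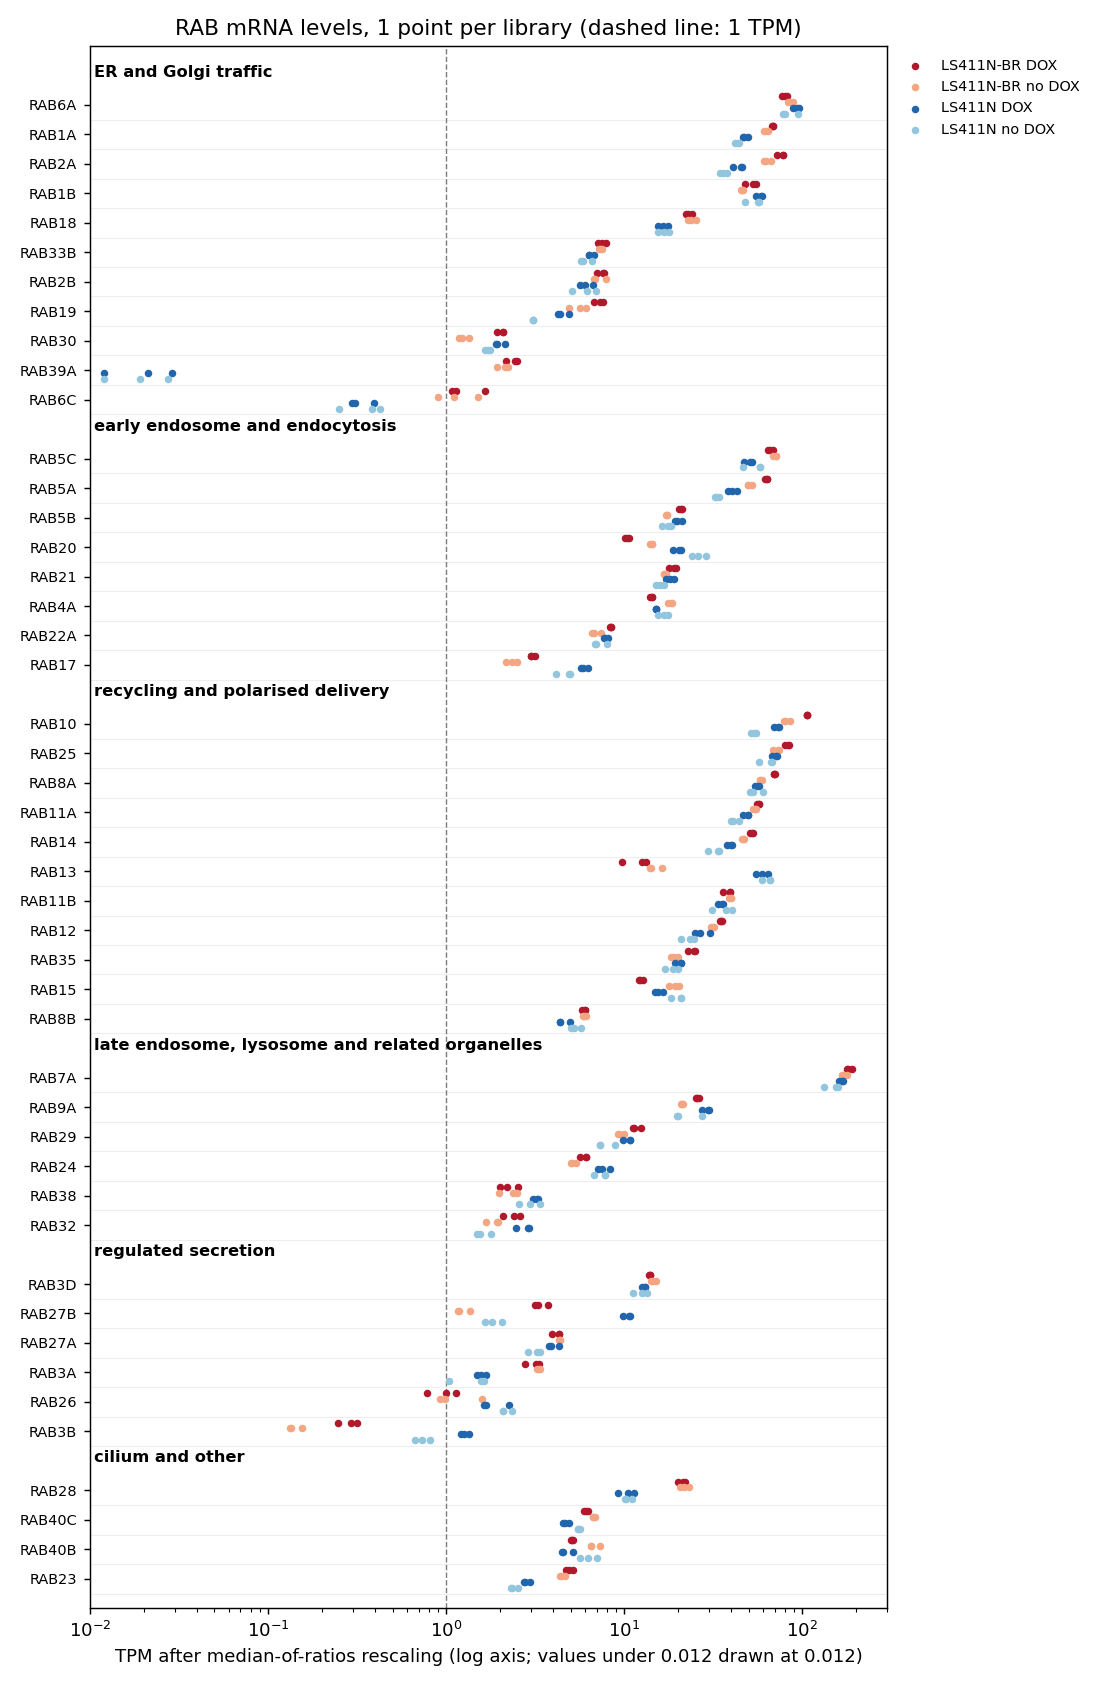
Rescaled TPM of the 46 RAB genes on a log axis, with 1 point per library, sorted by role and by mean level, in the order LS411N-BR DOX, LS411N-BR no DOX, LS411N DOX and LS411N no DOX from top to bottom within a gene. RAB7A, with an average of 168 TPM, stands far right, RAB27B has its LS411N DOX points apart from its other groups, and RAB39A has points above 1 TPM only in LS411N-BR.

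In LS411N-BR, 24 of 44 RAB genes tested rose with doxycycline, 7 fell and 13 did not pass the test. Across all 11250 genes tested in that line, 33.4% were called higher and 31.3% lower (64.7% in either direction), where the RAB genes had 54.5% and 15.9%. In LS411N, 14 of 44 tested rose, 4 fell and 26 did not pass, which is 31.8% and 9.09% of them, where all 11361 genes tested had 19% called higher and 15.5% called lower (34.5% in either direction). One of the 14, RAB3B, reached the level needed for a test only through the doxycycline libraries, so its call is no support, and without it 13 of 43 (30.2%) rose. Without regard to the test, the doxycycline libraries lay above all others for 24 and below them for 8 of the RAB genes in LS411N-BR, where 35.7% and 33.6% of all genes did, and for 21 (RAB3B among them) and 6 in LS411N, where 26.3% and 23% did. The test was limma on log2(TPM + 1) with Benjamini-Hochberg adjustment over all genes tested, called at an adjusted p under 0.05, and log2 fold changes on this scale understate those of genes with few TPM. Values in parentheses after a statement of change below are these log2 fold changes, doxycycline over no doxycycline. The median log2 fold change of the RAB genes was 0.11 in LS411N-BR and 0.13 in LS411N, against 0.01 and 0.02 over all genes tested. Most changes were small: 22 of the 24 increases and 6 of the 7 decreases in LS411N-BR were under 1.5-fold, as were 11 of the 14 increases and all 4 decreases in LS411N. The other 3 increases in LS411N were RAB27B, RAB32 and RAB3B.

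Among 42 RAB genes tested in both lines, 12 rose in both and 4 fell in both, where 16.3% of all 10932 genes tested in both lines were called higher in both and 13.2% lower in both. The genes that fell in both were RAB15, RAB20, RAB40B and RAB40C. Another 12 rose and 3 fell in LS411N-BR without passing the test in LS411N, 1 rose in LS411N without passing it in LS411N-BR, and 10 passed in neither. These counts do not test whether the lines differ. The difference of the doxycycline effects, the interaction term over all 12 libraries, was called for 4 of 46 RAB genes, higher in LS411N-BR for RAB30 and lower for RAB27B, RAB27A and RAB4A, where 4.37% of all 11681 genes were called higher and 5.8% lower (10.2% in either direction), so the share of RAB genes was near that of all genes. In bulk RNA, fewer cells that express a gene and less RNA per cell cannot be told apart.

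With TPM as deposited, the median of all genes moved to 0.18 in LS411N-BR and 0.08 in LS411N, and the calls of RAB genes changed to 32 higher and 4 lower in LS411N-BR and to 6 higher and 0 lower in LS411N by limma, where 2 had an unadjusted p under 0.05 and a lower value. The 6 called higher in LS411N with TPM as deposited were RAB10, RAB19, RAB27B, RAB29, RAB32 and RAB3B. Every other LS411N call of a RAB gene was lost there. Leaving out replicate 3 of LS411N without doxycycline gave 18 higher and 6 lower in LS411N. Leaving out doxycycline replicate 2 or 3 of that line gave 9 or 8 higher.

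**Figure D2:**
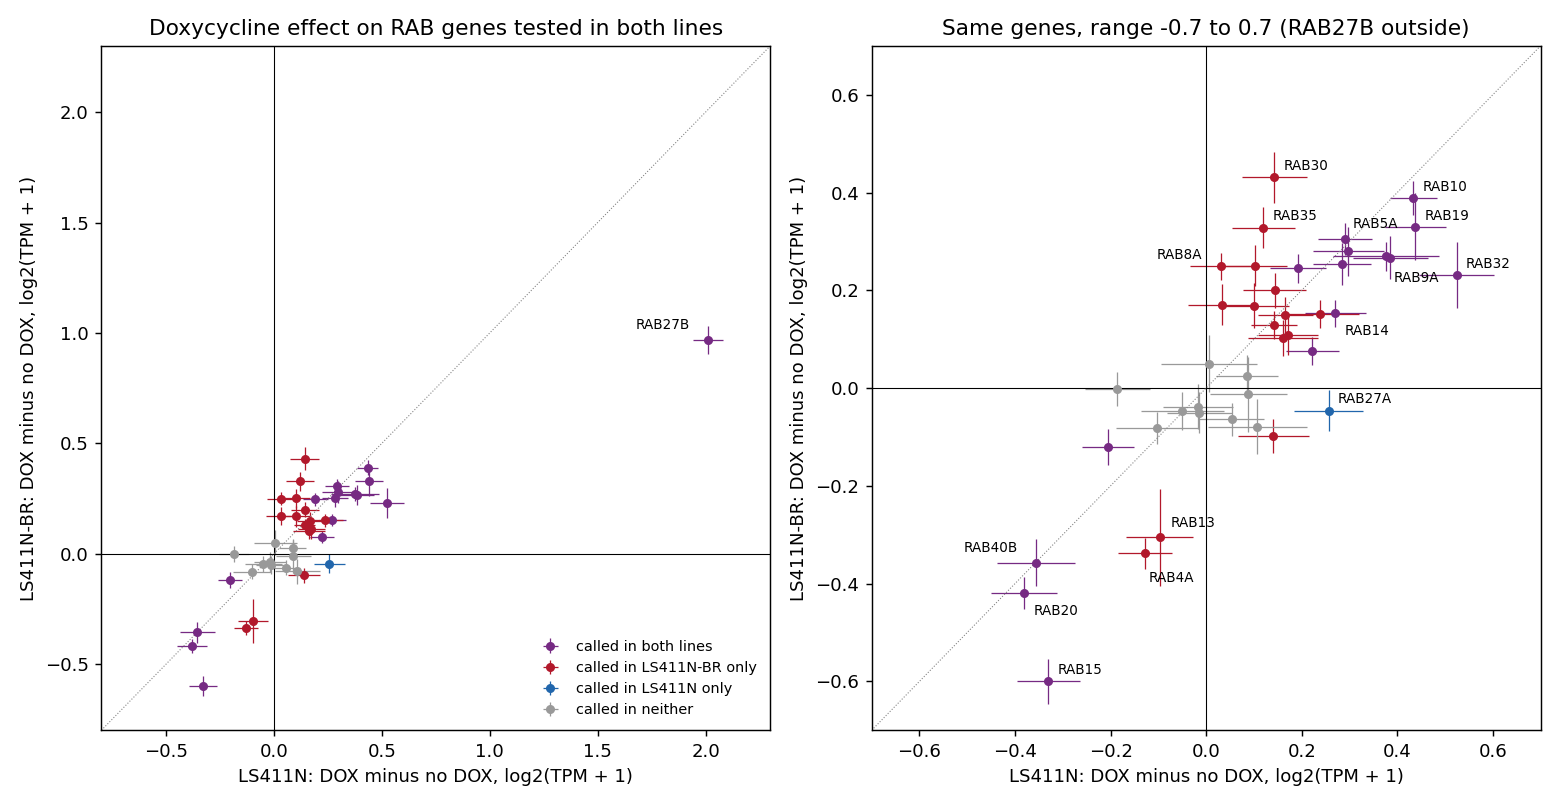
Log2 fold change with doxycycline in LS411N-BR (vertical) against that in LS411N (horizontal) for 42 RAB genes tested in both lines, on the log2(TPM + 1) scale, with bars of 1 standard error; the right panel repeats the left one over a narrower range. Colours give the line in which limma called the gene, and the dotted line marks equal effects. RAB27B lies far below it at 2.01 in LS411N and 0.97 in LS411N-BR, and RAB15, RAB20 and RAB40B lie at the lower left.

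Secretory RABs held the largest change. RAB27A and RAB27B are paralogues that dock secretory granules, lysosome-related organelles and exosome-bearing bodies at the plasma membrane, and RAB3A, RAB3B and RAB3D prime granules for regulated exocytosis. RAB27B had 3.14, 3.73 and 3.28 TPM in LS411N-BR with doxycycline, against 1.17, 1.18 and 1.37 TPM without it. RAB27B levels in LS411N were 9.87, 10.7 and 10.7 TPM with doxycycline, against 1.81, 1.65 and 2.05 TPM without it. All doxycycline libraries lay above all libraries without it in both lines, and those of LS411N stood highest. The log2 fold change was 0.97 ± 0.06 SE, adjusted p = 9.6e-07 in LS411N-BR and 2.01 ± 0.07 SE, adjusted p = 7e-07 in LS411N. That is 2.73-fold and 5.67-fold on the TPM scale. The effect in LS411N-BR was the smaller one by -1.04 ± 0.10 SE, adjusted p = 3.1e-05 on the log2 scale, and this call held under every setting tried, including without any 1 library.

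RAB27A moved less. It had 4.31, 4.32 and 3.95 TPM in LS411N-BR with doxycycline, against 4.31, 4.38 and 4.39 TPM without it. RAB27A levels in LS411N were 3.77, 3.87 and 4.28 TPM with doxycycline, against 3.37, 3.25 and 2.87 TPM without it. The LS411N groups did not overlap and the LS411N-BR groups did. RAB27A rose in LS411N (0.26 ± 0.07 SE, adjusted p = 0.024), a call lost without doxycycline replicate 2 or 3 (adjusted p up to 0.099). Its log2 fold change in LS411N-BR was -0.05 ± 0.04 SE, adjusted p = 0.36. The difference of the effects passed the test (-0.30 ± 0.08 SE, adjusted p = 0.034). It did not pass without doxycycline replicate 2 or 3 of LS411N or any 1 LS411N-BR library (adjusted p up to 0.09). It was also lost in 3 other settings, TPM as deposited among them (adjusted p up to 0.53). Of the summed RAB27A and RAB27B TPM, RAB27B made up 44.6% ± 2.16 in LS411N-BR with doxycycline and 22.1% ± 1.40 without it, and 72.4% ± 1.06 in LS411N with doxycycline and 36.8% ± 4.32 without it (SD, n = 3 each). RAB27A exons overlap PIGBOS1 on the same strand in GENCODE 29.

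RAB3B was under the level needed for a test in LS411N-BR, and in LS411N it reached that level only in the doxycycline libraries, so its values are a description. It had 0.246, 0.316 and 0.293 TPM in LS411N-BR with doxycycline, against 0.155, 0.134 and 0.135 TPM without it. RAB3B levels in LS411N were 1.26, 1.35 and 1.22 TPM with doxycycline, against 0.732, 0.816 and 0.668 TPM without it. All groups were low, and the doxycycline libraries were the higher ones in both lines. RAB3D, the highest of the secretory RABs, had 14, 13.9 and 13.8 TPM in LS411N-BR with doxycycline, against 14.4, 15.1 and 14.2 TPM without it. RAB3D levels in LS411N were 13.1, 13 and 12.6 TPM with doxycycline, against 13.4, 12.6 and 11.2 TPM without it. Its levels stayed within 11.2 and 15.1 TPM over all libraries, and neither line passed the test (adjusted p = 0.12 in LS411N-BR and 0.57 in LS411N). RAB3A had a log2 fold change of -0.08 ± 0.06 SE, adjusted p = 0.24, in LS411N-BR and of 0.11 ± 0.10 SE, adjusted p = 0.46, in LS411N. RAB26 of secretory granules did not pass in LS411N (-0.16 ± 0.09 SE, adjusted p = 0.22) and was too low to be tested in LS411N-BR.

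RABs of the late endosome, lysosome and lysosome-related organelles changed in 1 direction wherever they passed: 5 of 6 rose in LS411N-BR and 3 of 6 rose in LS411N, and the others did not pass. Of all genes tested, 33.4% were called higher and 31.3% lower in LS411N-BR, and 19% higher and 15.5% lower in LS411N. RAB7A, which directs late endosomes to lysosomes, had 191, 182 and 179 TPM in LS411N-BR with doxycycline, against 169, 167 and 178 TPM without it. RAB7A levels in LS411N were 170.3, 168 and 162 TPM with doxycycline, against 156, 159.6 and 132 TPM without it. It rose in LS411N-BR (0.10 ± 0.04 SE, adjusted p = 0.032), by 7.44%, a call lost without doxycycline replicate 1 or without replicate 1 or 2 of the libraries lacking doxycycline (adjusted p up to 0.13). RAB7A in LS411N did not pass (0.16 ± 0.07 SE, adjusted p = 0.12).

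RAB9A, which returns mannose 6-phosphate receptors from late endosomes to the Golgi, had 25.2, 25.6 and 26.4 TPM in LS411N-BR with doxycycline, against 21.2, 21.3 and 20.9 TPM without it. RAB9A levels in LS411N were 27.4, 30.1 and 29.7 TPM with doxycycline, against 19.9, 19.9 and 27.3 TPM without it. The groups did not overlap in either line, and the LS411N library without doxycycline that lay nearest to the doxycycline group was replicate 3. The log2 fold change was 0.27 ± 0.03 SE, adjusted p = 3.6e-05 in LS411N-BR and 0.38 ± 0.11 SE, adjusted p = 0.03 in LS411N. The LS411N call was lost without any 1 of the 5 LS411N libraries other than that one (adjusted p up to 0.1). Without that one the value was 0.52 with an adjusted p of 4.1e-05. The difference of the effects for RAB9A did not pass (-0.11 ± 0.13 SE, adjusted p = 0.65), but passed at -0.25 with adjusted p = 0.0072 without that library.

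RAB29, which works with the kinase LRRK2 at lysosomes and the Golgi, had 11.3, 12.4 and 11.3 TPM in LS411N-BR with doxycycline, against 9.96, 9.25 and 9.35 TPM without it. RAB29 levels in LS411N were 9.84, 10.8 and 10.8 TPM with doxycycline, against 7.28, 7.29 and 8.85 TPM without it. Both lines had all doxycycline libraries on top, and RAB29 rose in both (0.27 in LS411N-BR with adjusted p = 0.00053, and 0.39 in LS411N with adjusted p = 0.006). RAB32, known from melanosome and lysosome-related organelle biogenesis, had 2.61, 2.39 and 2.09 TPM in LS411N-BR with doxycycline, against 1.96, 1.68 and 1.94 TPM without it. RAB32 levels in LS411N were 2.93, 2.47 and 2.87 TPM with doxycycline, against 1.55, 1.78 and 1.5 TPM without it. RAB32 rose by 26.8% in LS411N-BR (0.23 ± 0.07 SE, adjusted p = 0.013) and by 71.2% in LS411N (0.52 ± 0.08 SE, adjusted p = 0.0013). The LS411N-BR call was lost without its doxycycline replicate 1 or its replicate 2 lacking doxycycline (adjusted p up to 0.05). RAB24, linked to autophagy, rose in LS411N-BR (0.17 ± 0.04 SE, adjusted p = 0.0055) and had a log2 fold change of 0.03 ± 0.07 SE, adjusted p = 0.75 in LS411N. RAB38, the paralogue of RAB32, did not pass in either line (-0.01 in LS411N-BR and 0.09 in LS411N).

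CD68, a lysosomal membrane glycoprotein gene that was on the list of immune markers, was also higher with doxycycline, with 62.9 ± 0.815 TPM in LS411N-BR with it and 35.6 ± 1.93 TPM without it, and 19.1 ± 0.948 TPM in LS411N with it and 8.13 ± 0.501 TPM without it (SD, n = 3 each). The immune markers PTPRC, CD3E and CD14 had at most 0.149 TPM in a library. The part of CD68 in the RAB values was not tested. The 10 epithelial markers summed to 3880 to 4010 TPM in LS411N-BR with doxycycline against 3123 to 3285 TPM without it, and to 3312 to 3540 TPM in LS411N with it against 2603 to 2814 TPM without it, and their part was not tested either. Of them, KRT8, KRT18, KRT19, KRT20 and CDX2 rose in both lines, and VIL1 rose in LS411N-BR only. EPCAM and CDH1 passed in neither line, and CDX1 was too low to be tested. LGALS4 fell in LS411N-BR (-0.11 ± 0.04 SE, adjusted p = 0.022) and rose in LS411N (0.16 ± 0.05 SE, adjusted p = 0.047).

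**Figure D3:**
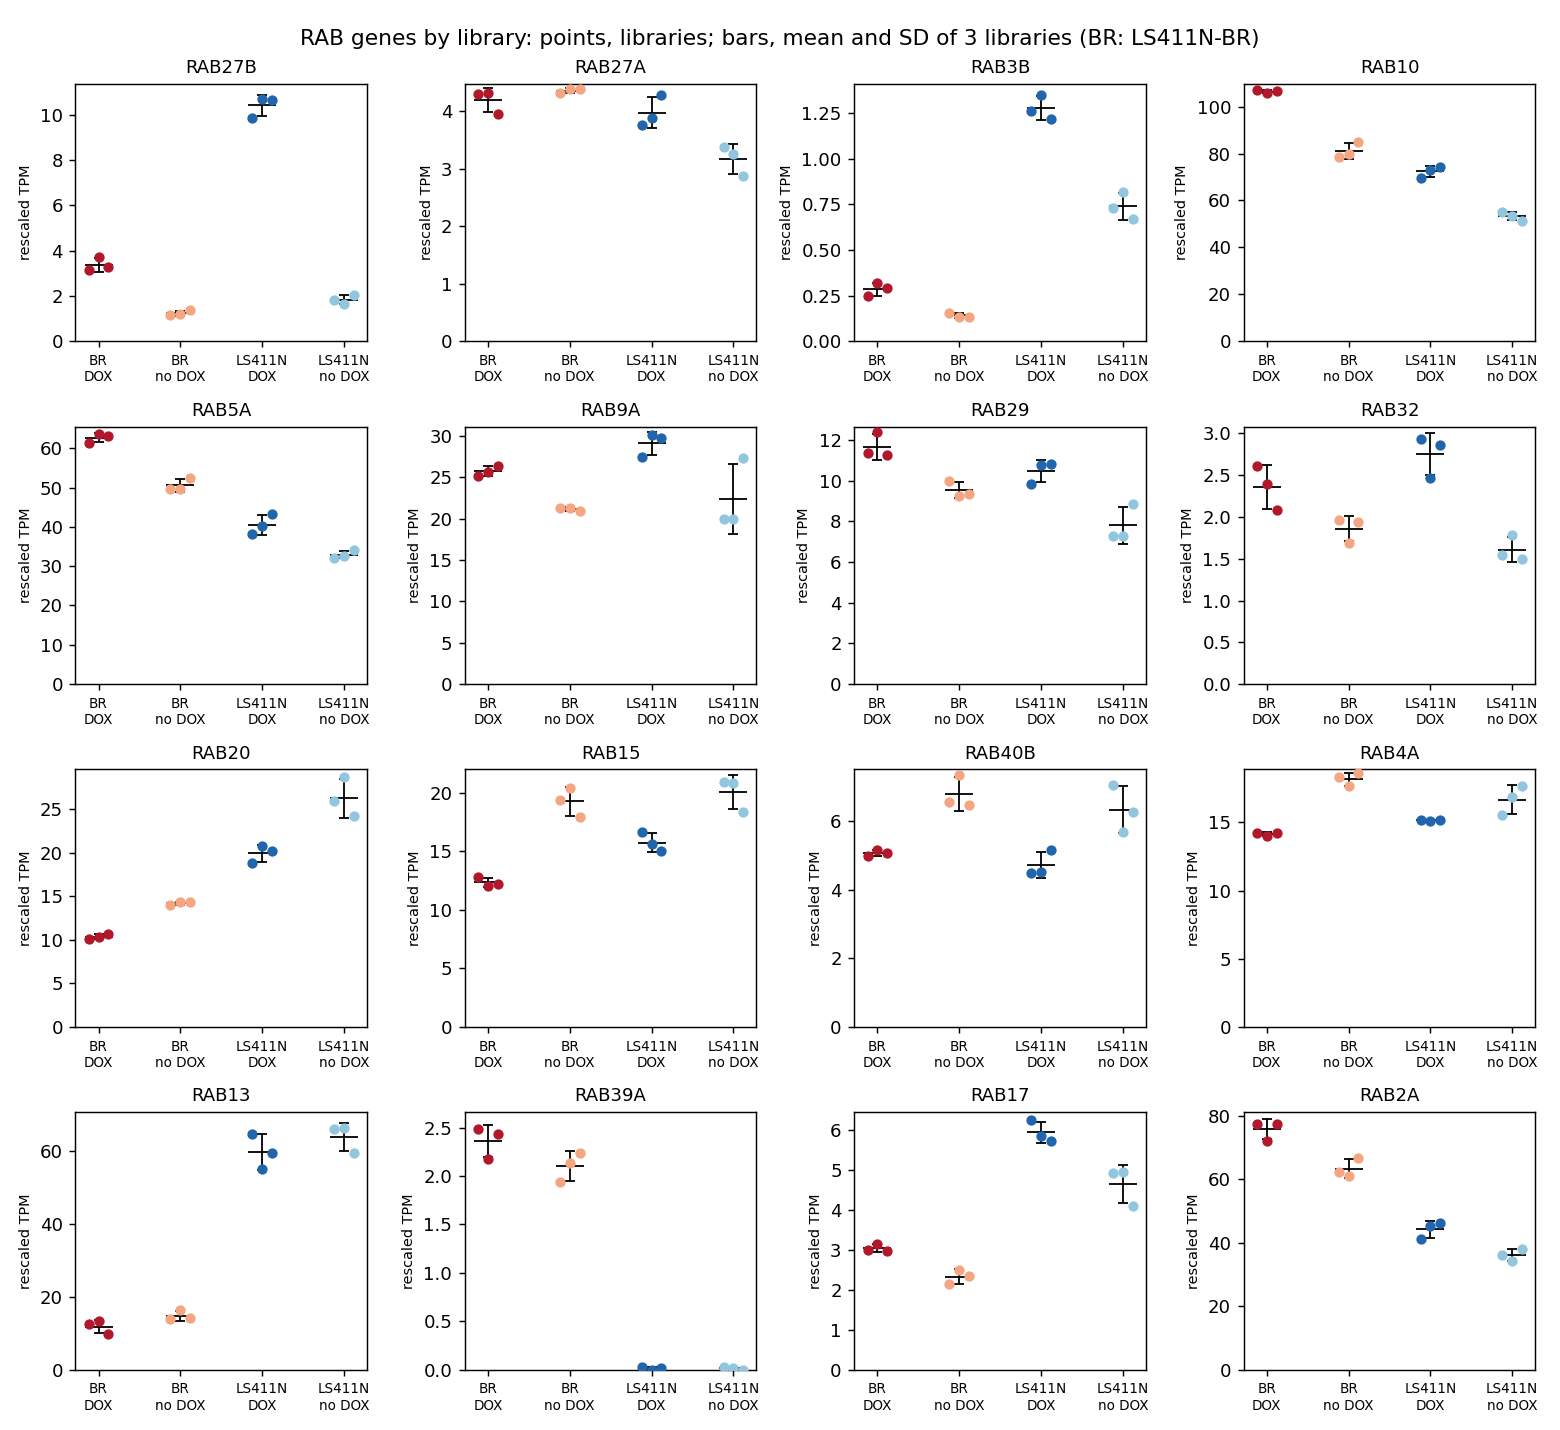
Rescaled TPM of 16 RAB genes by library, with points for libraries and bars for the mean and SD of 3 libraries, in the order LS411N-BR DOX, LS411N-BR no DOX, LS411N DOX and LS411N no DOX. RAB27B is highest in LS411N DOX, RAB10, RAB5A, RAB9A and RAB29 are higher with DOX in both lines, RAB20, RAB15 and RAB40B are lower with DOX in both lines, and RAB13 and RAB39A separate the lines.

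Recycling and polarised delivery, the largest role by summed TPM, had 7 of 11 members higher and 2 lower in LS411N-BR, where 33.4% of all genes were called higher and 31.3% lower. In LS411N, 3 of these 11 were higher and 1 lower, near the 19% and 15.5% of all genes. RAB10, which delivers cargo to the basolateral membrane and, in fat and muscle cells, the glucose transporter GLUT4, had 107, 106 and 107 TPM in LS411N-BR with doxycycline, against 78.6, 79.6 and 85.1 TPM without it. RAB10 levels in LS411N were 69.8, 73 and 74.4 TPM with doxycycline, against 55.1, 53.4 and 51.4 TPM without it. The doxycycline libraries were clear of the others in both lines. RAB10 rose by 31.3% in LS411N-BR (0.39 ± 0.03 SE, adjusted p = 8.2e-06) and by 35.8% in LS411N (0.43 ± 0.05 SE, adjusted p = 0.00032).

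RAB15, which is placed on early and recycling endosomes and slows receptor uptake, went the other way. It had 12.8, 12 and 12.2 TPM in LS411N-BR with doxycycline, against 19.4, 20.4 and 17.9 TPM without it. RAB15 levels in LS411N were 16.6, 15.6 and 15 TPM with doxycycline, against 20.9, 20.8 and 18.3 TPM without it. The doxycycline libraries were the lowest in both lines. RAB15 fell by 35.8% in LS411N-BR (-0.60 ± 0.05 SE, adjusted p = 3.2e-06) and by 21.6% in LS411N (-0.33 ± 0.07 SE, adjusted p = 0.0053). Its LS411N call was lost with TPM as deposited (adjusted p = 0.24). The difference of the effects did not pass the test (-0.27 ± 0.08 SE, adjusted p = 0.061).

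RAB35, a regulator of fast recycling and of neighbouring actin, rose in LS411N-BR (0.33 ± 0.04 SE, adjusted p = 0.0001). It had 24.7, 22.9 and 25 TPM in LS411N-BR with doxycycline, against 19.9, 18.3 and 19 TPM without it. RAB35 levels in LS411N were 20.9, 20.8 and 19.2 TPM with doxycycline, against 20.0, 18.9 and 17 TPM without it. The LS411N groups overlapped, and that line did not pass the test (0.12 ± 0.07 SE, adjusted p = 0.2). The difference of the effects for RAB35 did not pass (0.21 ± 0.08 SE, adjusted p = 0.13), but passed at 0.27 with adjusted p = 0.015 without replicate 3 of LS411N lacking doxycycline.

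RAB13, which is found at tight junctions, had 12.6, 13.3 and 9.71 TPM in LS411N-BR with doxycycline, against 13.9, 16.3 and 14.1 TPM without it. RAB13 levels in LS411N were 64.6, 55 and 59.3 TPM with doxycycline, against 65.9, 66.1 and 59.4 TPM without it. It fell in LS411N-BR (-0.31 ± 0.10 SE, adjusted p = 0.021), and its LS411N groups overlapped (-0.10 ± 0.07 SE, adjusted p = 0.32). The LS411N-BR call of RAB13 was lost without replicate 2 lacking doxycycline (adjusted p = 0.079). That call was also lost with TPM as deposited, with no filter on low values and with the robust option of limma (adjusted p up to 0.11). The recycling RABs RAB11A and RAB25 were high in every group. RAB11A rose in both lines (0.08 in LS411N-BR and 0.22 in LS411N), but the call was lost in LS411N-BR without any 1 library other than replicate 3 lacking doxycycline (adjusted p up to 0.15), and in LS411N without replicate 1 or 2 lacking doxycycline or replicate 2 or 3 with it (adjusted p up to 0.071). RAB25, the epithelial paralogue of RAB11A, rose in LS411N-BR (0.20 ± 0.04 SE, adjusted p = 0.00086) and had a log2 fold change of 0.14 ± 0.07 SE, adjusted p = 0.13 in LS411N.

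Among the others, RAB14, which works between the Golgi and endosomes, rose in both lines (0.15 in LS411N-BR and 0.27 in LS411N, where the call was lost without doxycycline replicate 3 at adjusted p = 0.051). RAB8A, which carries Golgi cargo to the plasma membrane and cilium, rose in LS411N-BR (0.25 ± 0.03 SE, adjusted p = 3.9e-05) and had a log2 fold change of 0.03 ± 0.06 SE, adjusted p = 0.74 in LS411N. Its paralogue RAB8B had log2 fold changes of -0.0019 in LS411N-BR and -0.19 in LS411N and passed in neither line. RAB12 rose in LS411N-BR (0.15 ± 0.03 SE, adjusted p = 0.0012) and missed the threshold in LS411N (0.24 ± 0.08 SE, adjusted p = 0.053). RAB11B did not pass in either line (-0.05 in LS411N-BR and -0.05 in LS411N).

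RABs of the early endosome and of endocytosis had 5 of 8 members higher and 2 lower in LS411N-BR, against 33.4% and 31.3% of all genes, and 3 higher and 1 lower in LS411N, against 19% and 15.5% of all genes. RAB5A, RAB5B and RAB5C are paralogues that drive early endosome fusion. RAB5A had 61.4, 63.7 and 63.2 TPM in LS411N-BR with doxycycline, against 49.7, 49.7 and 52.6 TPM without it. RAB5A levels in LS411N were 38.2, 40.3 and 43.2 TPM with doxycycline, against 32.2, 32.6 and 34 TPM without it. Neither line had overlapping groups, and RAB5A rose in both (0.30 ± 0.03 SE, adjusted p = 2.8e-05, in LS411N-BR, and 0.29 ± 0.06 SE, adjusted p = 0.0047, in LS411N). With TPM as deposited the LS411N call of RAB5A was lost (adjusted p = 0.096). RAB5C, the highest of the role, had 68.9, 64.6 and 65.9 TPM in LS411N-BR with doxycycline, against 71.2, 68.7 and 71.3 TPM without it. RAB5C levels in LS411N were 52.3, 50.8 and 47.1 TPM with doxycycline, against 57.9, 57.6 and 46.5 TPM without it. Its groups overlapped in both lines and it did not pass in either (-0.08 ± 0.03 SE, adjusted p = 0.052, in LS411N-BR, and -0.10 ± 0.09 SE, adjusted p = 0.4, in LS411N), although LS411N passed at -0.20 with adjusted p = 0.0093 without replicate 3 lacking doxycycline. RAB5B rose in LS411N-BR (0.25 ± 0.03 SE, adjusted p = 5.9e-05) and in LS411N (0.19 ± 0.06 SE, adjusted p = 0.034), where the call was lost without replicate 1 lacking doxycycline or any 1 doxycycline library (adjusted p up to 0.12). The share of RAB5A in the sum of the RAB5 genes was 41.9% ± 1.13 in LS411N-BR with doxycycline and 36.6% ± 0.609 without it, and 36.7% ± 2.52 in LS411N with doxycycline and 31.7% ± 2.98 without it (SD, n = 3 each).

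RAB20, an endosomal and phagosomal RAB known to respond to hypoxia, had 10.1, 10.4 and 10.6 TPM in LS411N-BR with doxycycline, against 14, 14.3 and 14.3 TPM without it. RAB20 levels in LS411N were 18.8, 20.7 and 20.2 TPM with doxycycline, against 26, 28.7 and 24.2 TPM without it. The doxycycline libraries were the lowest of each line. RAB20 fell by 27.0% in LS411N-BR (-0.42 ± 0.03 SE, adjusted p = 3.2e-06) and by 24.2% in LS411N (-0.38 ± 0.07 SE, adjusted p = 0.0034). Its LS411N call was lost with TPM as deposited (adjusted p = 0.15). RAB17, an epithelial RAB of transcytosis, had 3.01, 3.15 and 2.98 TPM in LS411N-BR with doxycycline, against 2.16, 2.51 and 2.34 TPM without it. RAB17 levels in LS411N were 6.25, 5.87 and 5.73 TPM with doxycycline, against 4.92, 4.95 and 4.12 TPM without it. RAB17 rose in both lines without overlap (0.28 ± 0.05 SE, adjusted p = 0.00093, in LS411N-BR, and 0.30 ± 0.07 SE, adjusted p = 0.015, in LS411N), and the LS411N call was lost without doxycycline replicate 1 (adjusted p = 0.061).

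RAB4A, which returns receptors from early endosomes to the surface by the fast route, had 14.3, 14 and 14.2 TPM in LS411N-BR with doxycycline, against 18.3, 17.7 and 18.6 TPM without it. RAB4A levels in LS411N were 15.2, 15.1 and 15.2 TPM with doxycycline, against 15.6, 16.8 and 17.6 TPM without it. In LS411N-BR the doxycycline group was well below the other, and in LS411N it lay just below it. RAB4A fell by 22% in LS411N-BR (-0.34 ± 0.03 SE, adjusted p = 1.1e-05) and did not pass in LS411N (-0.13 ± 0.06 SE, adjusted p = 0.11). The difference of the effects was -0.21 ± 0.06 SE, adjusted p = 0.047. It was lost without any 1 library except replicate 3 of LS411N lacking doxycycline (adjusted p up to 0.11). It was also lost in 5 other settings, TPM as deposited among them (adjusted p up to 0.84). RAB4A exons overlap SPHAR on the same strand. RAB21, which takes up integrins, and RAB22A of early endosomes rose in LS411N-BR (0.15 for RAB21 and 0.25 for RAB22A) and did not pass in LS411N (0.17 for RAB21 and 0.10 for RAB22A).

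RABs of the endoplasmic reticulum and Golgi had 5 of 11 members higher and 1 lower in LS411N-BR (33.4% and 31.3% of all genes), and 2 of 9 tested higher in LS411N, near the 19% of all genes. RAB6A, which acts in traffic at the Golgi and back to the endoplasmic reticulum, had 77.3, 80.4 and 81.8 TPM in LS411N-BR with doxycycline, against 82.9, 85.2 and 88.4 TPM without it. RAB6A levels in LS411N were 88.9, 93.2 and 95.8 TPM with doxycycline, against 78, 80.2 and 94.4 TPM without it. It fell by 6.62% in LS411N-BR (-0.10 ± 0.03 SE, adjusted p = 0.032), but with TPM as deposited its value was 0.10, and the call was also lost without replicate 2 or 3 lacking doxycycline or doxycycline replicate 1 or 2 (adjusted p up to 0.12). In LS411N its groups overlapped (0.14 ± 0.07 SE, adjusted p = 0.18), and it passed at 0.22 with adjusted p = 0.0036 without replicate 3 lacking doxycycline. The difference of the effects for RAB6A did not pass (-0.24 ± 0.09 SE, adjusted p = 0.1). Without that library it passed at -0.32 with adjusted p = 0.0018. RAB6C, a retrogene copy of RAB6A, was tested in LS411N-BR and did not pass (0.07 ± 0.11 SE, adjusted p = 0.59), and its reads may be shared with RAB6A.

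RAB19 had 6.75, 7.64 and 7.3 TPM in LS411N-BR with doxycycline, against 6.12, 5.67 and 4.89 TPM without it. RAB19 levels in LS411N were 4.25, 4.38 and 4.92 TPM with doxycycline, against 3.07, 3.06 and 3.06 TPM without it. Groups were apart in both lines, and RAB19 rose in both (0.33 ± 0.07 SE, adjusted p = 0.0021, in LS411N-BR, and 0.44 ± 0.06 SE, adjusted p = 0.0013, in LS411N). RAB30, a Golgi RAB, had 2.09, 1.93 and 2.1 TPM in LS411N-BR with doxycycline, against 1.19, 1.23 and 1.35 TPM without it. RAB30 levels in LS411N were 1.93, 1.9 and 2.15 TPM with doxycycline, against 1.66, 1.77 and 1.71 TPM without it. RAB30 rose by 62.5% in LS411N-BR (0.43 ± 0.05 SE, adjusted p = 6.6e-05) and did not pass in LS411N (0.14 ± 0.07 SE, adjusted p = 0.14), where its groups did not overlap either. The difference of the effects was 0.29 ± 0.08 SE, adjusted p = 0.034, and this call was lost without 7 of the libraries in turn. In LS411N-BR they were doxycycline replicates 1 and 3 and replicates 1 and 2 lacking doxycycline. In LS411N they were doxycycline replicates 1 and 2 and replicate 2 lacking doxycycline (adjusted p up to 0.091 over the 7). The RAB30 difference was also lost in 2 other settings, TPM as deposited among them (adjusted p up to 0.16).

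RAB2A, which works between the endoplasmic reticulum and the Golgi, had 77.5, 72.1 and 77.5 TPM in LS411N-BR with doxycycline, against 62.3, 60.9 and 66.9 TPM without it. RAB2A levels in LS411N were 41.1, 45.4 and 46.2 TPM with doxycycline, against 36, 34.4 and 37.9 TPM without it. The doxycycline groups were the higher ones without overlap. RAB2A rose in both lines (0.25 ± 0.04 SE, adjusted p = 0.00058, in LS411N-BR, and 0.28 ± 0.06 SE, adjusted p = 0.0078, in LS411N). Its LS411N call was lost with TPM as deposited (adjusted p = 0.11). RAB1A and RAB1B, which start transport from the endoplasmic reticulum, rose in LS411N-BR (0.13 for RAB1A and 0.17 for RAB1B) and did not pass in LS411N (0.14 at adjusted p = 0.051 for RAB1A and 0.10 for RAB1B). RAB2B, RAB18 of lipid droplets and RAB33B of the Golgi did not pass in either line. RAB39A did not pass in LS411N-BR (0.12 ± 0.06 SE, adjusted p = 0.095) and was near 0 in LS411N.

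In the last group, RAB40B and RAB40C, which carry a SOCS box and join a CUL5 ubiquitin ligase, fell in both lines. RAB40B had 5, 5.17 and 5.07 TPM in LS411N-BR with doxycycline, against 6.55, 7.36 and 6.47 TPM without it. RAB40B levels in LS411N were 4.48, 4.53 and 5.16 TPM with doxycycline, against 7.05, 5.67 and 6.28 TPM without it. RAB40B fell by 25.3% in LS411N-BR (-0.36 ± 0.05 SE, adjusted p = 0.00013) and by 25.4% in LS411N (-0.36 ± 0.08 SE, adjusted p = 0.011). With TPM as deposited the LS411N call of RAB40B was lost (adjusted p = 0.16). RAB40C had 6.11, 5.96 and 6.3 TPM in LS411N-BR with doxycycline, against 6.7, 6.89 and 6.65 TPM without it. RAB40C levels in LS411N were 4.65, 4.93 and 4.54 TPM with doxycycline, against 5.53, 5.67 and 5.54 TPM without it. Groups of both genes were apart in both lines. RAB40C fell by 9.21% in LS411N-BR (-0.12 ± 0.04 SE, adjusted p = 0.015), where TPM as deposited gave 0.05 and no call, and by 15.6% in LS411N (-0.21 ± 0.05 SE, adjusted p = 0.02), a call lost without replicate 1 or 2 lacking doxycycline or doxycycline replicate 1 or 3 (adjusted p up to 0.078).

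RAB28, a RAB of the cilium, had 21.4, 20.2 and 21.9 TPM in LS411N-BR with doxycycline, against 20.5, 21.7 and 23 TPM without it. RAB28 levels in LS411N were 9.28, 10.5 and 11.3 TPM with doxycycline, against 10.1, 10.2 and 11.1 TPM without it. Its groups overlapped within each line and it passed in neither (-0.04 in LS411N-BR, which became 0.15 with TPM as deposited at adjusted p = 0.028, and -0.02 in LS411N). RAB23, a negative regulator of Hedgehog signalling, rose in LS411N-BR (0.11 ± 0.04 SE, adjusted p = 0.046) and had a log2 fold change of 0.17 ± 0.06 SE, adjusted p = 0.064 in LS411N. The LS411N-BR call of RAB23 was lost without replicate 1 or 2 lacking doxycycline or doxycycline replicate 1 or 3 (adjusted p up to 0.15).

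The levels of RAB genes in the lines without doxycycline are given side by side without a test, since the lines were deposited as separate tables and their levels are set on 1 scale only by the rescaling over shared genes. LS411N-BR lay above LS411N without overlap for 24 of the 46 genes, below it for 10, and 12 overlapped. Of the 11674 genes in both tables that reach the same level of 1 TPM in 3 libraries, 41.7% lay above and 34.3% below without overlap. Among the 42 members with at least 1 TPM in every library, 22 lay above and 8 below, the median ratio was 1.14 against 1.03 over those 11674 genes, and 3 differed by 2-fold or more without overlap, namely RAB13, RAB28 and RAB3A. RAB39A, RAB6C and RAB3B also differed that much, but each became a member through the line where it is high. RAB13 had 13.9, 16.3 and 14.1 TPM in LS411N-BR without doxycycline, against 65.9, 66.1 and 59.4 TPM in LS411N without it. That is the largest difference of the 46 on the log2(TPM + 1) scale, at -2.04, and the highest LS411N-BR library, at 16.3 TPM, lay far under the lowest LS411N library, at 59.4 TPM.

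RAB39A had 1.94, 2.13 and 2.24 TPM in LS411N-BR without doxycycline, against 0.0274, 0.019 and 0 TPM in LS411N without it, and RAB3B had 0.155, 0.134 and 0.135 TPM in LS411N-BR without doxycycline, against 0.732, 0.816 and 0.668 TPM in LS411N without it. RAB6C had 1.11, 0.903 and 1.51 TPM in LS411N-BR without doxycycline, against 0.426, 0.385 and 0.249 TPM in LS411N without it. RAB28 had 20.5, 21.7 and 23 TPM in LS411N-BR without doxycycline, against 10.1, 10.2 and 11.1 TPM in LS411N without it. RAB2A and RAB23 were also higher in every LS411N-BR library, by mean ratios of 1.75 and 1.87. RAB3A had 3.31, 3.38 and 3.26 TPM in LS411N-BR without doxycycline, against 1.57, 1.63 and 1.04 TPM in LS411N without it, again with LS411N-BR on top. On the lower side, RAB20 was at 0.540 and RAB17 at 0.501 of the LS411N mean in LS411N-BR. RAB26 had 0.924, 1.6 and 0.982 TPM in LS411N-BR without doxycycline, against 2.08, 2.08 and 2.35 TPM in LS411N without it, with LS411N-BR below.

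Genes that load, switch off, carry or bind RABs were read from 4 lists. In LS411N-BR, 12 of 29 tested exchange factors rose and 7 fell, and 18 of 32 GTPase activating proteins rose and 5 fell, where 33.4% of all genes were called higher and 31.3% lower. In LS411N, 4 of 29 exchange factors rose, and of 31 GTPase activating proteins 3 rose and 2 fell, where 19% of all genes were called higher and 15.5% lower. Of RAB effectors, 21 of 38 tested rose and 7 fell in LS411N-BR, and 14 of 42 rose and 6 fell in LS411N. Among these calls, TBC1D9 and RILP in LS411N-BR and EVI5L, SYTL5, RILP and MYRIP in LS411N reached the level needed for a test only with the help of the group where they are higher, so they are no support. Of the 7 genes of prenylation and GDI, 4 fell in LS411N-BR and 2 fell in LS411N. The median log2 fold changes of the effectors were 0.14 in LS411N-BR and 0.09 in LS411N, and those of prenylation and GDI were -0.17 in LS411N-BR and -0.14 in LS411N, against 0.01 and 0.02 over all genes tested.

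**Figure D4:**
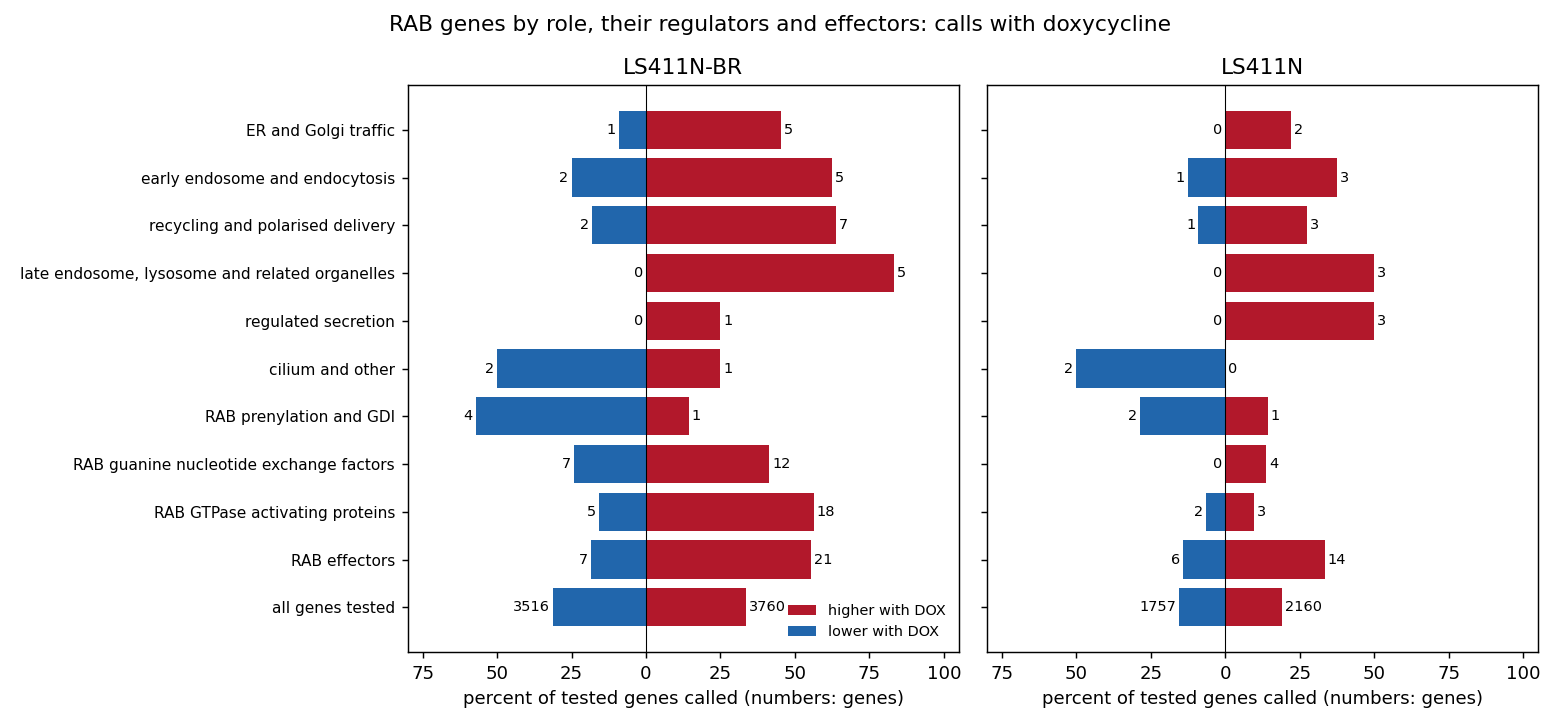
Percent of tested genes called higher (right, red) and lower (left, blue) with doxycycline by limma in LS411N-BR and LS411N for the 6 roles of RAB genes, the 4 lists of their partners and all genes tested, with the number of genes beside each bar. The bars of late endosome and lysosome RABs lie on the right only, and those of prenylation and GDI lie mostly on the left.

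RABs are prenylated after an escort protein presents them to the transferase. The genes of both escort proteins, CHM and CHML, fell in both lines. CHML had 7.58, 7.17 and 7.65 TPM in LS411N-BR with doxycycline, against 12.9, 13 and 13.1 TPM without it. CHML levels in LS411N were 6.29, 6.36 and 6.74 TPM with doxycycline, against 7.76, 6.99 and 8.65 TPM without it. It fell in LS411N-BR (-0.72 ± 0.03 SE, adjusted p = 1.4e-07) and in LS411N (-0.23 ± 0.07 SE, adjusted p = 0.039), and the fall was larger in LS411N-BR (-0.49 ± 0.08 SE, adjusted p = 0.0025), a difference that did not pass with TPM as deposited (adjusted p = 0.33). The LS411N call of CHML was lost with TPM as deposited (adjusted p = 0.5), with no filter on low values (adjusted p = 0.1) and without replicate 1 lacking doxycycline or any 1 doxycycline library (adjusted p up to 0.12). CHM had 3.28, 3.31 and 3.26 TPM in LS411N-BR with doxycycline, against 4.84, 5.03 and 4.85 TPM without it. CHM levels in LS411N were 2.97, 3.13 and 3.16 TPM with doxycycline, against 3.85, 3.88 and 4.87 TPM without it. The LS411N call of CHM was lost with TPM as deposited (adjusted p = 0.18), with no filter (adjusted p = 0.051) and without doxycycline replicate 1 (adjusted p = 0.053).

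Among exchange factors, RIC1, which activates RAB6A together with RGP1, had 10.4, 10.5 and 10.5 TPM in LS411N-BR with doxycycline, against 6.15, 6.22 and 6.04 TPM without it. RIC1 levels in LS411N were 5.27, 5.46 and 5.59 TPM with doxycycline, against 4.14, 3.73 and 4.06 TPM without it. It rose in both lines (0.69 ± 0.03 SE, adjusted p = 1.2e-07, in LS411N-BR, and 0.37 ± 0.06 SE, adjusted p = 0.0018, in LS411N), more so in LS411N-BR (0.31 ± 0.06 SE, adjusted p = 0.0055, but 0.11 with TPM as deposited). DENND5B rose in LS411N-BR (0.66 ± 0.04 SE, adjusted p = 8.4e-07) and had a log2 fold change of 0.17 ± 0.08 SE, adjusted p = 0.14 in LS411N, with a difference of 0.49 ± 0.09 SE, adjusted p = 0.0046. DENND4A, an exchange factor of RAB10, rose in both lines (0.31 in LS411N-BR and 0.36 in LS411N), as did RIN2, an exchange factor of RAB5 (0.24 in LS411N-BR and 0.35 in LS411N). RAB3IL1 fell in LS411N-BR (-0.33 ± 0.07 SE, adjusted p = 0.0023). Of the GTPase activating proteins, TBC1D8B rose (0.45 in LS411N-BR and 0.35 in LS411N) and TBC1D8 fell (-0.21 in LS411N-BR and -0.35 in LS411N), which passed in neither line with TPM as deposited (adjusted p of 0.63 in LS411N-BR and 0.2 in LS411N). EVI5L and TBC1D17 rose in LS411N-BR (0.29 for EVI5L and 0.45 for TBC1D17). The call of EVI5L in LS411N (0.36, adjusted p = 0.025) was lost with no filter, and without replicate 1 lacking doxycycline or doxycycline replicate 1 or 2 (adjusted p up to 0.097). TBC1D9 had 1.19, 1.31 and 1.10 TPM in LS411N-BR with doxycycline, against 0.698, 0.785 and 0.668 TPM without it.

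RABEP1, which encodes rabaptin-5 and links RAB5 to RAB4 on early endosomes, had 11.2, 11.2 and 11.1 TPM in LS411N-BR with doxycycline, against 19.3, 19.7 and 19 TPM without it. RABEP1 levels in LS411N were 12.1, 12.1 and 11.7 TPM with doxycycline, against 20.8, 20.1 and 21.5 TPM without it. No group overlapped, and RABEP1 fell in both lines (-0.74 ± 0.03 SE, adjusted p = 5.4e-08, in LS411N-BR, and -0.75 ± 0.05 SE, adjusted p = 1.5e-05, in LS411N). The difference of its effects was 0.01 ± 0.05 SE, adjusted p = 0.9. Among effectors of RAB27, SYTL2, a synaptotagmin-like protein that binds RAB27 on granules, had 7.58, 7.47 and 7.49 TPM in LS411N-BR with doxycycline, against 3.51, 3.55 and 3.08 TPM without it. SYTL2 levels in LS411N were 10.6, 11 and 11.1 TPM with doxycycline, against 5.88, 6.72 and 6.96 TPM without it. It rose in both lines (0.96 ± 0.05 SE, adjusted p = 1.7e-07, in LS411N-BR, and 0.66 ± 0.07 SE, adjusted p = 0.00015, in LS411N). EXPH5, another RAB27 effector, rose by 0.69 in LS411N-BR and 0.31 in LS411N on the log2 scale, where the LS411N call was lost with TPM as deposited (adjusted p = 0.083). OPTN, an effector of RAB8, rose by 0.68 in LS411N-BR and 0.72 in LS411N.

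Exons of 25 of the 46 members overlap those of another gene in GENCODE 29, 8 on the same strand and 21 on the opposite one. The kit keeps the strand, but the sources used here do not say whether the counting used it, so reads of RAB27B and of the antisense gene AC098848.1, for example, cannot be told apart from the tables alone.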

How the data were processed

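Messenger RNA of 12 libraries (2 cell lines, with and without doxycycline, 3 each) was prepared with the TruSeq Stranded mRNA kit, per the labels' protocols. The authors deposited TPM per gene, in 1 table per line; the submitters' processing notes list GRCh38, STAR and DESeq2 but no roles for them. Neither the program behind the TPM nor its annotation nor read totals is given in the sources, so depth and counting error are unknown.

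From these TPM, libraries were rescaled by median-of-ratios over 14233 genes of both tables with a value above 0 in all 12 libraries. limma 3.58.1 (R 4.3.3) was run on log2(TPM + 1) with an intensity trend, for genes with 1 rescaled TPM or more in 3 or more of the libraries fitted. Tests were two-sided. The threshold was a p of 0.05 after Benjamini-Hochberg adjustment over all genes tested. Each line was fitted on its 6 libraries, and the difference of the effects as the interaction term over all 12. Levels of the lines were set side by side without a test. The scripts were tested on simulated data.

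Samples were grouped by the treatment and cell line labels. The members and all gene lists were chosen with earlier results of these data known. Values of every library are given for the 8 members per line and direction with the largest change among called members whose groups do not overlap, the members called in the difference (up to 5 per direction), the highest member of each role, and the 5 members per direction with the largest level difference between lines without doxycycline. Of each partner list, up to 3 called genes per line with the largest change are named. Promoters came from RefSeq (GRCh38.p14), and exon overlaps from GENCODE 29. Single genes of the marker and partner lists are not all reported here.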

Additional observations from a re-analysis of the deposited data

Results flagged for a closer look

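The doxycycline effect differed between LS411N-BR and LS411N, by the interaction term of limma over 12 libraries, for 4 of 46 RAB genes and 11 of 110 genes of the lists of their partners, where 10.2% of all genes tested were called, so these shares are near those of all genes. All values here are the log2 effect in LS411N-BR minus that in LS411N. Among the RAB genes the values were -1.04 for RAB27B (adjusted p = 3.1e-05), -0.30 for RAB27A (adjusted p = 0.034), 0.29 for RAB30 (adjusted p = 0.034) and -0.21 for RAB4A (adjusted p = 0.047). The call of RAB27B held under every setting tried. Those of RAB27A, RAB30 and RAB4A were lost when single libraries were left out, and also with TPM as deposited.

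Of the RAB27 effectors, SYTL5 had -0.55 (adjusted p = 0.0037), SYTL1 -0.55 (adjusted p = 0.004) and MLPH -0.35 (adjusted p = 0.031), while EXPH5 had 0.38 (adjusted p = 0.0059) and SYTL2 0.30 (adjusted p = 0.039). SYTL1 fell in LS411N-BR with doxycycline (-0.52) and had 0.03 in LS411N, whereas SYTL5 and MLPH were under the level needed for a test in LS411N-BR and had 0.62 and 0.46 in LS411N. SYTL5 had 0.150 to 0.264 TPM in every LS411N-BR library, where log2(TPM + 1) flattens a change, and reached 1 TPM in the 3 LS411N libraries with doxycycline and 1 without it, so its value is a description. The escort protein gene CHML had -0.49 (adjusted p = 0.0025). The exchange factors DENND5B and RIC1 had 0.49 (adjusted p = 0.0046) and 0.31 (adjusted p = 0.0055). The values were 0.34 for RAB11FIP5, an effector of RAB11 (adjusted p = 0.0069), -0.35 for MYO5C, a myosin that moves RAB carrying vesicles (adjusted p = 0.0076), and 0.27 for BICD1, an effector of RAB6 that links to dynein (adjusted p = 0.029). RAB11FIP5, MYO5C, SYTL1, SYTL5, MLPH and BICD1 were named after their values were seen. Of the 11 partner genes, 9 were lost with TPM as deposited (adjusted p of 0.11 to 0.6), all but SYTL5 and DENND5B, and MLPH, SYTL2 and BICD1 were also lost without some 1 library.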

How the results depend on the processing

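The RAB27B calls in both lines and in the difference between them held under every setting in which RAB27B was tested. In LS411N-BR it was tested in 14 settings, since it was too low there for the filter of 5 TPM. Of the calls in LS411N-BR, 23 of 31 held in every setting in which the gene was tested, in LS411N 6 of 18, and in the difference 1 of 4. The 6 in LS411N include RAB3B, which was tested in only 11 of 15 settings and whose call is no support. With TPM as deposited, without rescaling, the median of all genes moved to 0.18 in LS411N-BR, 0.08 in LS411N and 0.11 in the difference. There, 6 RAB genes were called higher and 0 lower in LS411N, 4 lower in LS411N-BR, and 0 higher and 1 lower in the difference by limma; at an unadjusted p under 0.05 there were 2 lower in LS411N and 3 higher in the difference. Values with TPM as deposited changed sign in LS411N-BR for RAB28 (0.15), RAB40C (0.054) and RAB6A (0.10), all of them below that median of 0.18. In the difference, 0 were called higher with a filter of 5 TPM and 0 with the replicate block, which changed no count of calls in the lines by over 1.5 times (24 higher and 8 lower in LS411N-BR, and 15 higher and 5 lower in LS411N); there, 3 with that filter and 4 with that block were higher at an unadjusted p under 0.05. With the block, 3 RAB genes were called lower in the difference, of which 1 (RAB27B) was called lower without it: RAB27A (adjusted p = 0.081), RAB4A (0.067) and RAB30 (0.069) were lost, and RAB15 (0.041) and RAB6A (0.048) gained. The numbers did not pair the samples: correlations of the deviations of same-numbered libraries from their group means were 0.02, -0.01 and 0.21 in LS411N and 0.02, -0.0017 and 0.01 in LS411N-BR, and not every library correlated best with its own number. Leaving out 1 library at a time gave 20 to 24 higher and 6 to 7 lower in LS411N-BR, 8 to 18 higher and 3 to 6 lower in LS411N, and 0 to 3 higher and 1 to 6 lower in the difference (2 to 4 higher at an unadjusted p under 0.05 where the count was 0); a lone sample was nowhere left in a group. Replicate 3 of LS411N without doxycycline gave the upper end in LS411N and in the difference when left out. Leaving out RAB3B, chosen after seeing the data, gave 13 higher in LS411N. Over all settings, 174 of 2390 values of named genes and counts over all genes lost a call and 21 gained one, and the causes were not tested. Depth is unknown, and changes of genes near 1 TPM are understated on the log2(TPM + 1) scale.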
